A study of Homo sapiens with 9 samples.

Results

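Collagens, laminins, and integrins were represented by 52 of the 14839 genes measured in MP41 cells, a uveal melanoma (UM) line. The members were taken by symbol alone (COL, LAMA, LAMB, LAMC, ITGA, or ITGB followed by the chain number or letter), without use of any measured value. They comprised 27 collagen chains, 10 laminin chains, and 15 integrin subunits. RNA sequencing of polyA RNA followed MP41 cells after transfection of synthetic miR-16 or of the control mimic miR-CTR, each at 66 nM with a lipid reagent, at 6, 12, 24, and 48 h. A library labelled miR-CTR at 0 h served as the common start, which made 9 libraries (4 miR-16 and 5 miR-CTR) from 1 cell line. Each condition had 1 library, so the mimics were compared without a test and the spread between cultures is unknown. The time points of the deposited columns are numbered (T0, T1, T2, T4, and T5), and were taken in rising order as 0, 6, 12, 24, and 48 h, which no label states.

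Values are log2(normalized reads + 1). The logFC is the miR-16 value less the miR-CTR value at the same time. The early logFC averages 6 and 12 h, and the late logFC averages 24 and 48 h. A gene past 0.5 in size (1.41-fold) was called higher or lower with miR-16. Each ± is a standard error of counting, computed from the reads, and holds no spread between cultures. The libraries held 20260000 to 27370000 reads (median 22090000), of which the members took 0.344 to 0.387%. The 8 melanocyte markers were all measured, with a summed level of 18.61 to 18.95 (log2 scale) over the libraries. Of the fibroblast or pericyte markers, 5 of 7 were in the table, with a summed level of 8.74 to 9.9, whereas DCN and THY1 were not. None of the 5 endothelial and none of the 4 epithelial markers was in the table, and of the leukocyte markers only CD68 was (5.46 to 5.86). The cells thus carried the markers of their label.

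Collagens and laminins are the structural proteins of the matrix on which cells rest. Collagen chains wind into triple helices that form fibrils, sheets, or filaments, and laminins are trimers of an alpha, a beta, and a gamma chain that organize the basement membrane. Integrins are the receptors, pairs of an alpha and a beta subunit that span the membrane and link these proteins to the cytoskeleton. Melanocytes of the eye lie in a collagen-rich stroma, and melanoma cells make part of their own matrix. miRNAs lower the level of RNAs that pair with their seed, bases 2 to 8 from the 5′ end, usually in the 3′UTR.

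The sequence of miR-16 sets which sites can be read from the members, so it is shown first, as given by RefSeq and with the seed in capitals.
miR-16: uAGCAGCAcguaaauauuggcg

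A match to the miR-16 seed in the longest annotated 3′UTR (TGCTGCT, its extension TGCTGCTA, or GCTGCTA, transcribed strand only) was found in 9 of the 52 members (17.3%). Over the 11568 protein-coding genes of the table with a 3′UTR, it was found in 3381 (29.2%). Matches were held by 3 of 27 collagens, 1 of 10 laminins, and 5 of 15 integrins. The longest 3′UTR had a median length of 1322.5 bases in the members and of 1420.0 in all genes. No member held the full TGCTGCTA, against 5.0% of all genes. Sites of some of the members whose late values are described below are given here with the match in capitals, as DNA on the transcribed strand. The GRCh38 position of the matched bases is from GENCODE version 29.
COL25A1 (chr4:108809574-108809580, reverse strand): aaaattgcctaTGCTGCTtattgaaagaa
COL24A1 (chr1:85729576-85729582, reverse strand): ttttttgaaatTGCTGCTgttttaaatta
ITGA2 (chr5:53091111-53091117, forward strand): ttttcaatttaTGCTGCTcatccaaagtt
ITGA2 (chr5:53092596-53092602, forward strand): ctgtgagaattTGCTGCTtcattccaaca
LAMC1 (chr1:183142893-183142899, forward strand): ccccactcctcTGCTGCTgtccatgactg
ITGB5 (chr3:124763436-124763442, reverse strand): catgtcacctgGCTGCTAggccagagcca
ITGAX (chr16:31382439-31382445, forward strand): agttctgaataTGCTGCTcatccccacct

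Per kb of the longest annotated transcript, the chains most abundant at 0 h were LAMC1, the common laminin gamma chain, with 3259 normalized reads per kb, and COL11A1, a fibrillar chain known best from cartilage, with 2870. ITGB1, the beta subunit shared by most matrix-binding integrins, followed with 1607 normalized reads per kb. COL9A3 had 744, ITGB5 730, LAMA1 661, and ITGAV 551 normalized reads per kb. The 5 lowest members were COL25A1 (2.33), COL12A1 (2.04), LAMA2 (1.5), COL2A1 (1.02), and COL7A1 (0.79). The plot of levels at 0 h shows collagens at both ends of it.

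**Figure D1:**
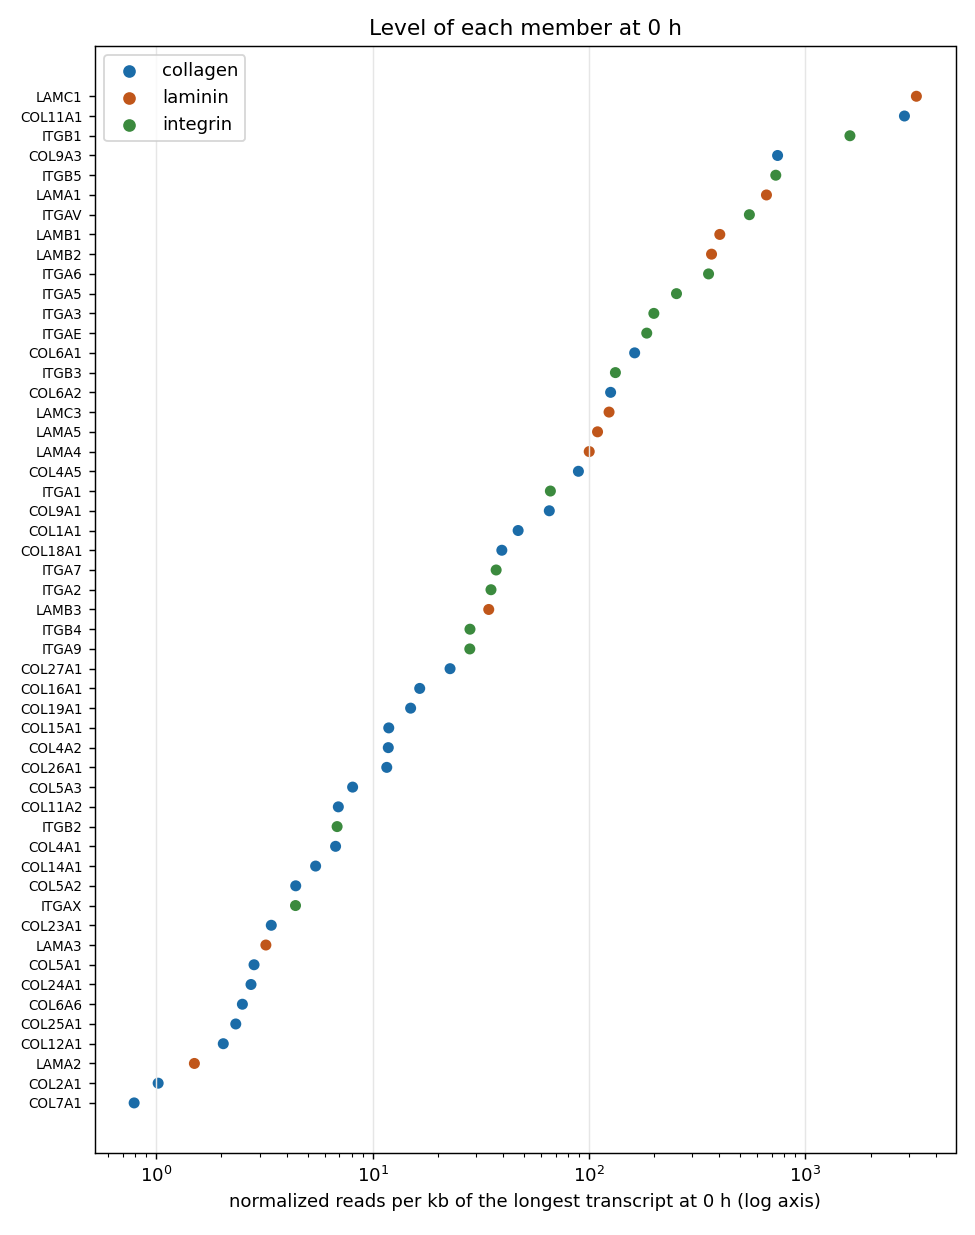
Level of each of the 52 members at 0 h, in normalized reads per kb of the longest annotated transcript on a log axis, 1 library and 1 point per gene, coloured by family. LAMC1 (3259) and COL11A1 (2870) stand at the top, and 23 of the 27 collagens lie below 100.

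At the per-kb scale, COL11A1 held 57.5 to 67.6% of all collagen reads in the 9 libraries, and COL9A3 15.7 to 19.7%. LAMC1 held 93.6 to 96.3% of the gamma-chain reads per kb. Among the alpha chains, LAMA1 held 64.0 to 76.4%, LAMA4 11.5 to 22.5%, and LAMA5 10.4 to 17.2%. LAMB1 and LAMB2 shared the beta chains, with LAMB2 at 44.4 to 49.3% in the 7 libraries up to 24 h and at 62.0 and 63.2% at 48 h with miR-CTR and miR-16. The laminin chains most abundant per length were thus alpha 1, beta 1 or beta 2, and gamma 1. ITGB1 made up 31.3 to 38.1% of the integrin reads per kb, ITGB5 15.9 to 19.9%, and ITGAV 10.1 to 13.1%.

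In the late window 11 of the 52 members (21.2%) were higher with miR-16, where 7.76% of all genes were. They were ITGA7, COL4A1, COL14A1, COL2A1, COL5A1, COL5A3, ITGAX, COL23A1, LAMA4, LAMA3, and COL16A1. Lower with miR-16 were 4 members (7.69%), COL25A1, COL7A1, ITGB2, and COL9A1, where 5.73% of all genes were. The median late logFC was 0.1 over the members and 0.005 over all genes, with 29 members above 0 and 23 below. By family, 7 of 27 collagens, 2 of 10 laminins, and 2 of 15 integrins were higher, and 3 collagens and 1 integrin lower. Under quantile normalization 9 members were higher and 7 lower (6.71 and 6.75% of all genes). The lowest called higher was COL16A1 at 0.52 and the next members below it were COL18A1, ITGB4, and ITGB5, each at 0.28. On the other side, COL9A1 at −0.58 was past the threshold, and COL24A1 at −0.495 and ITGA2 at −0.44 just failed to reach it.

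Most of the called members were weakly expressed. The lowest 25% of genes by mean expression included 22 members and 12 of the 15 calls, and among those 22 members 9 were higher and 3 lower with miR-16. Of all genes in that range, 19.1% were higher and 8.52% lower, shares above those in any other 25% of the genes. Among the 30 members above that range, 2 were higher (3.96% of all genes there) and 1 lower (4.81%). These 3 calls were ITGA7 and COL9A1 (mean levels 7.25 and 9.04) and LAMA4 (9.82). None of the 10 members in the highest 25% was called, where 2.37% of all genes were higher and 4.45% lower. The 95% counting interval excluded 0 for 10 of the 11 higher members (7.26% of all genes were both called higher and apart from 0) and for 3 of the 4 lower ones (5.37%). The exceptions were LAMA3 (−0.06 to 1.17) and COL7A1 (−1.34 to 0.03). Past 0.5 at both 24 and 48 h were 6 higher members, ITGA7, COL4A1, COL14A1, COL2A1, ITGAX, and COL23A1 (4.03% of all genes), and 1 lower member, COL25A1 (2.78%). All 11 higher members had a larger logFC at 48 h than at 24 h, as did 69.3% of the 1151 genes called higher.

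**Figure D2:**
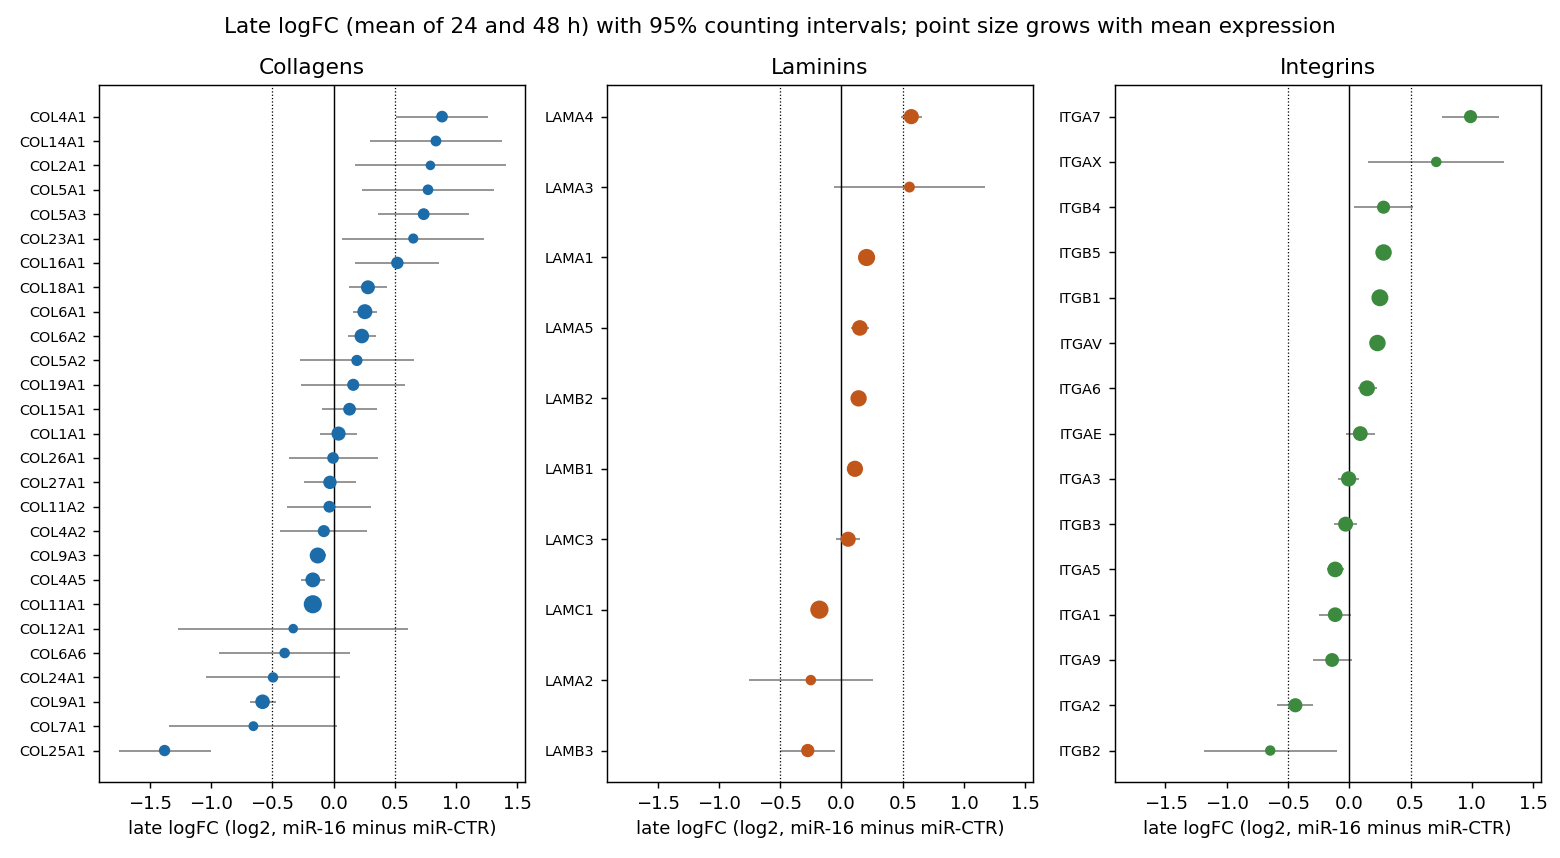
Late logFC (log2, miR-16 minus miR-CTR, mean of 24 and 48 h) of the 27 collagens, 10 laminins, and 15 integrins, with bars for the 95% counting interval (1 library per condition) and point size growing with mean expression. Dotted lines mark 0.5 on either side, and the small points with wide bars lie at both ends, from ITGA7 at 0.99 to COL25A1 at −1.38.

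Type IV collagen builds the sheet of the basement membrane, most often from COL4A1 and COL4A2 chains together. COL4A1 was 5.51 at 0 h, 5.66, 5.52, 5.43, and 5.42 under miR-CTR at 6, 12, 24, and 48 h, and 5.41, 5.27, 6.00, and 6.62 under miR-16 at the same times. Its late logFC was 0.885 ± 0.19, on 36 to 92 reads per library, and the 2 late miR-16 values lay above each of the other 7. COL4A2 was 6.28 at 0 h, 6.32, 6.04, 6.14, and 5.88 under miR-CTR, and 6.24, 5.99, 5.95, and 5.91 under miR-16. With a late logFC of −0.08 ± 0.18, COL4A2 was within its counting error of 0. Within libraries, COL4A1 minus COL4A2 was between −0.83 and −0.46 in the 7 libraries other than late miR-16, and 0.05 and 0.71 with miR-16 at 24 and 48 h. The late logFC of this difference was 0.965 ± 0.26. COL4A5, a chain of another type IV trimer, had a late logFC of −0.17 ± 0.05.

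**Figure D3:**
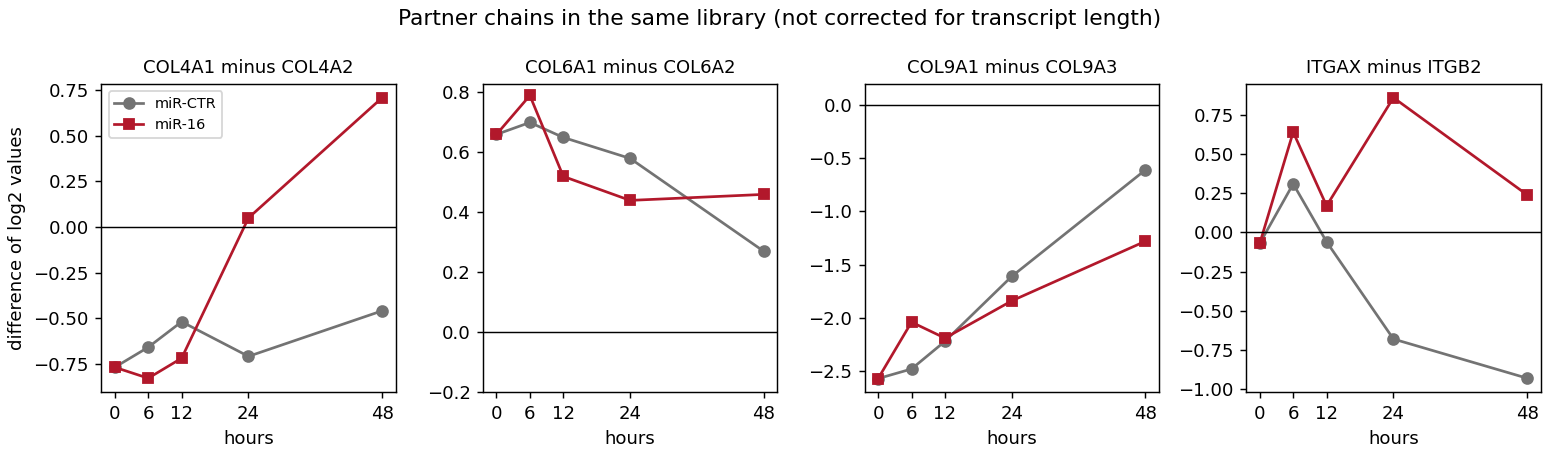
Difference of log2 values between partner chains in the same library against hours, 1 library per point, with 0 h shared by the miR-CTR (grey) and miR-16 (red) lines, no correction for transcript length, and a separate y axis in each panel. COL4A1 minus COL4A2 reached 0.71 with miR-16 at 48 h against −0.46 with miR-CTR, whereas COL6A1 minus COL6A2 differed by 0.025 in the late window.

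COL4A1 and COL4A2 are arranged head to head on chromosome 13, and RefSeq (GRCh38.p14) places their start sites 126 bases apart, not counting the start bases. The promoter window of COL4A2, chr13:110307034-110307333, which includes the start of COL4A1, is shown on the forward strand because one chain of the pair was called and the other was not. The capitals mark the bases between the start of COL4A1, which is read to the left, and that of COL4A2, which is read to the right.
COL4A1-COL4A2: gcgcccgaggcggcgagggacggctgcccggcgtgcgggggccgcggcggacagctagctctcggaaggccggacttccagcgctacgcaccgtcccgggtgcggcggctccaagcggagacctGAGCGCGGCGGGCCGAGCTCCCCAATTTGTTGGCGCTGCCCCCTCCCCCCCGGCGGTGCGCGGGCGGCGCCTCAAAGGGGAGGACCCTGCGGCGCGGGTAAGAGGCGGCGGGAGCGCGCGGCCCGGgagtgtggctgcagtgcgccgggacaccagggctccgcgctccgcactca
On either strand, the bases between the start sites held 1 GGGCGG (GC box), 1 CCAAT, and no TATAAA. In windows of 250 bases before to 50 after the start, GGGCGG occurred in 44.9% of 35097 RefSeq promoters, CCAAT in 34.6%, and TATAAA in 11.5%. The members had 51 such windows, of which 35 held GGGCGG, 11 CCAAT, and 6 TATAAA. Some members had more than 1 of these windows, in part overlapping, and others, such as ITGA7 and COL14A1, had none.

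Fibrillar collagens form the ropes of connective tissue, and 3 of the 9 measured chains were higher with miR-16 (7.76% of all genes). These 3 lay in the lowest 25% of genes by mean expression, where 19.1% of all genes were higher. Type V collagen regulates the start and width of fibrils. COL5A1 was 4.64 at 0 h, 4.74, 4.98, 4.46, and 4.42 under miR-CTR, and 5.05, 3.69, 4.46, and 5.96 under miR-16. The 48 h value with miR-16 was the highest of the 9 and the 12 h value with miR-16 the lowest, so its late logFC of 0.77 ± 0.28 came from 48 h alone (1.54, against 0.00 at 24 h). COL5A3, a less common chain of the same collagen, was 5.67 at 0 h, 5.71, 5.69, 5.68, and 5.33 under miR-CTR, and 5.98, 5.63, 5.93, and 6.55 under miR-16. Its logFC was also larger at 48 h (1.22) than at 24 h (0.25), for a late logFC of 0.735 ± 0.19. COL5A2, the remaining chain, was 5.01 at 0 h, 5.52, 5.10, 5.24, and 4.91 under miR-CTR, and 5, 5.31, 5.24, and 5.29 under miR-16. It had a late logFC of 0.19 ± 0.24. The 3 type V chains had at most 88 reads in any library.

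COL2A1, the main collagen of cartilage and of the vitreous of the eye, was 2.63 at 0 h, 3.26, 3.11, 3.65, and 4.48 under miR-CTR, and 3.35, 3.59, 4.31, and 5.40 under miR-16. It was higher with miR-16 at each of the 4 times, with a late logFC of 0.79 ± 0.31 on 5 to 39 reads. Relative to 0 h its late value was higher with both mimics, by 1.44 ± 0.59 with miR-CTR and by 2.23 with miR-16. COL11A1, the most abundant collagen, was 14.36 at 0 h, 14.43, 14.13, 14.35, and 14.38 under miR-CTR, and 14.33, 14.11, 14.11, and 14.28 under miR-16. It was lower with miR-16 at each of the 4 times, with logFC from −0.24 to −0.02, and its late logFC of −0.17 ± 0.01 was larger than its counting error but under the threshold. COL11A2, a partner chain of COL11A1, was 5.51 at 0 h, 5.60, 5.79, 5.62, and 6.68 under miR-CTR, and 5.28, 5.66, 6.22, and 6.01 under miR-16. The logFC of COL11A2 was 0.60 at 24 h and −0.67 at 48 h, which gave a late logFC of −0.035 ± 0.18. COL1A1, a chain of the most common fibrillar collagen, had a late logFC of 0.04 ± 0.08. COL27A1 had −0.03 ± 0.11, and COL24A1, which holds a miR-16 seed match, −0.495 ± 0.28.

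Collagens of the FACIT class do not form fibrils of their own and sit on the surface of others. Of 6 measured, 2 were higher with miR-16 and 1 lower (7.76 and 5.73% of all genes). The 2 higher ones lay in the lowest 25% of genes by mean expression, where 19.1% of all genes were higher. COL14A1 was 5.18 at 0 h, 5.02, 4.74, 4.24, and 4.48 under miR-CTR, and 4.78, 4.83, 4.82, and 5.57 under miR-16. The miR-CTR values lay below the 0 h value at every time, and the late logFC was 0.835 ± 0.28 on 17 to 44 reads. COL16A1 was 6.58 at 0 h, 7.07, 6.63, 6.26, and 5.39 under miR-CTR, and 6.69, 6.77, 6.50, and 6.19 under miR-16. Both late miR-16 values were below 0 h, less so than the miR-CTR values, and the late logFC was 0.52 ± 0.18. Quantile normalization (0.41) and a pseudocount of 8 (0.47) ended this call. COL9A1, which coats cartilage and vitreous fibrils, was 8.29 at 0 h, 8.55, 8.71, 9.32, and 10.52 under miR-CTR, and 8.63, 8.68, 8.93, and 9.75 under miR-16. It was higher at each later time point with either mimic, and its miR-16 values were the lower ones at 24 and 48 h, with a late logFC of −0.58 ± 0.05 on 300 or more reads in every library. COL9A3, its partner chain, was 10.86 at 0 h, 11.03, 10.93, 10.93, and 11.13 under miR-CTR, and 10.67, 10.87, 10.77, and 11.03 under miR-16. COL9A1 minus COL9A3 in the same library was −2.57 at 0 h, and at 48 h it was −0.61 with miR-CTR and −1.28 with miR-16. COL12A1 had 3 to 28 reads and a late logFC of −0.33 ± 0.48, and COL19A1 0.16 ± 0.22.

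Beaded filament collagen, type VI, is made of COL6A1, COL6A2, and one more chain. COL6A1 was 9.43 at 0 h, 9.58, 9.54, 9.44, and 9.68 under miR-CTR, and 9.55, 9.34, 9.49, and 10.14 under miR-16. COL6A2 was 8.77 at 0 h, 8.88, 8.89, 8.86, and 9.41 under miR-CTR, and 8.76, 8.82, 9.05, and 9.68 under miR-16. The pair had late logFC of 0.255 ± 0.05 and 0.23 ± 0.06, and their difference of 0.025 ± 0.08 was within its counting error. COL6A6, an alternative for that chain, had a late logFC of −0.4 ± 0.27. The multiplexins COL15A1 and COL18A1, basement membrane collagens that carry sugar chains, had 0.13 ± 0.12 and 0.28 ± 0.08.

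The 2 transmembrane collagens stood on opposite sides. COL25A1, first known from amyloid plaques of the brain, was 4.30 at 0 h, 4.98, 4.74, 6.28, and 7.15 under miR-CTR, and 4.58, 5.27, 5.46, and 5.21 under miR-16. With miR-CTR it was 1.98 higher than at 0 h by 24 h and 2.85 higher by 48 h, and with miR-16 1.16 and 0.91 higher. The late logFC of −1.38 ± 0.19 was the lowest of the 52 members, with 18 to 165 reads per library, and this gene holds the seed match shown above. COL23A1 was 3.51 at 0 h, 3.40, 3.94, 3.65, and 5.27 under miR-CTR, and 4.10, 4.05, 4.24, and 5.98 under miR-16. It was higher with miR-16 at each of the 4 times, with a late logFC of 0.65 ± 0.3. COL7A1, which forms the anchoring fibrils under the epidermis, was 3.05 at 0 h, 3.40, 3.84, 4.07, and 4.78 under miR-CTR, and 4.72, 4.58, 4.15, and 3.39 under miR-16. Its logFC was 1.32 and 0.74 at 6 and 12 h, 0.08 at 24 h, and −1.39 at 48 h, for a late logFC of −0.655 ± 0.35, on 7 to 31 reads per library. With a pseudocount of 8 it was −0.46 and not called.

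**Figure D4:**
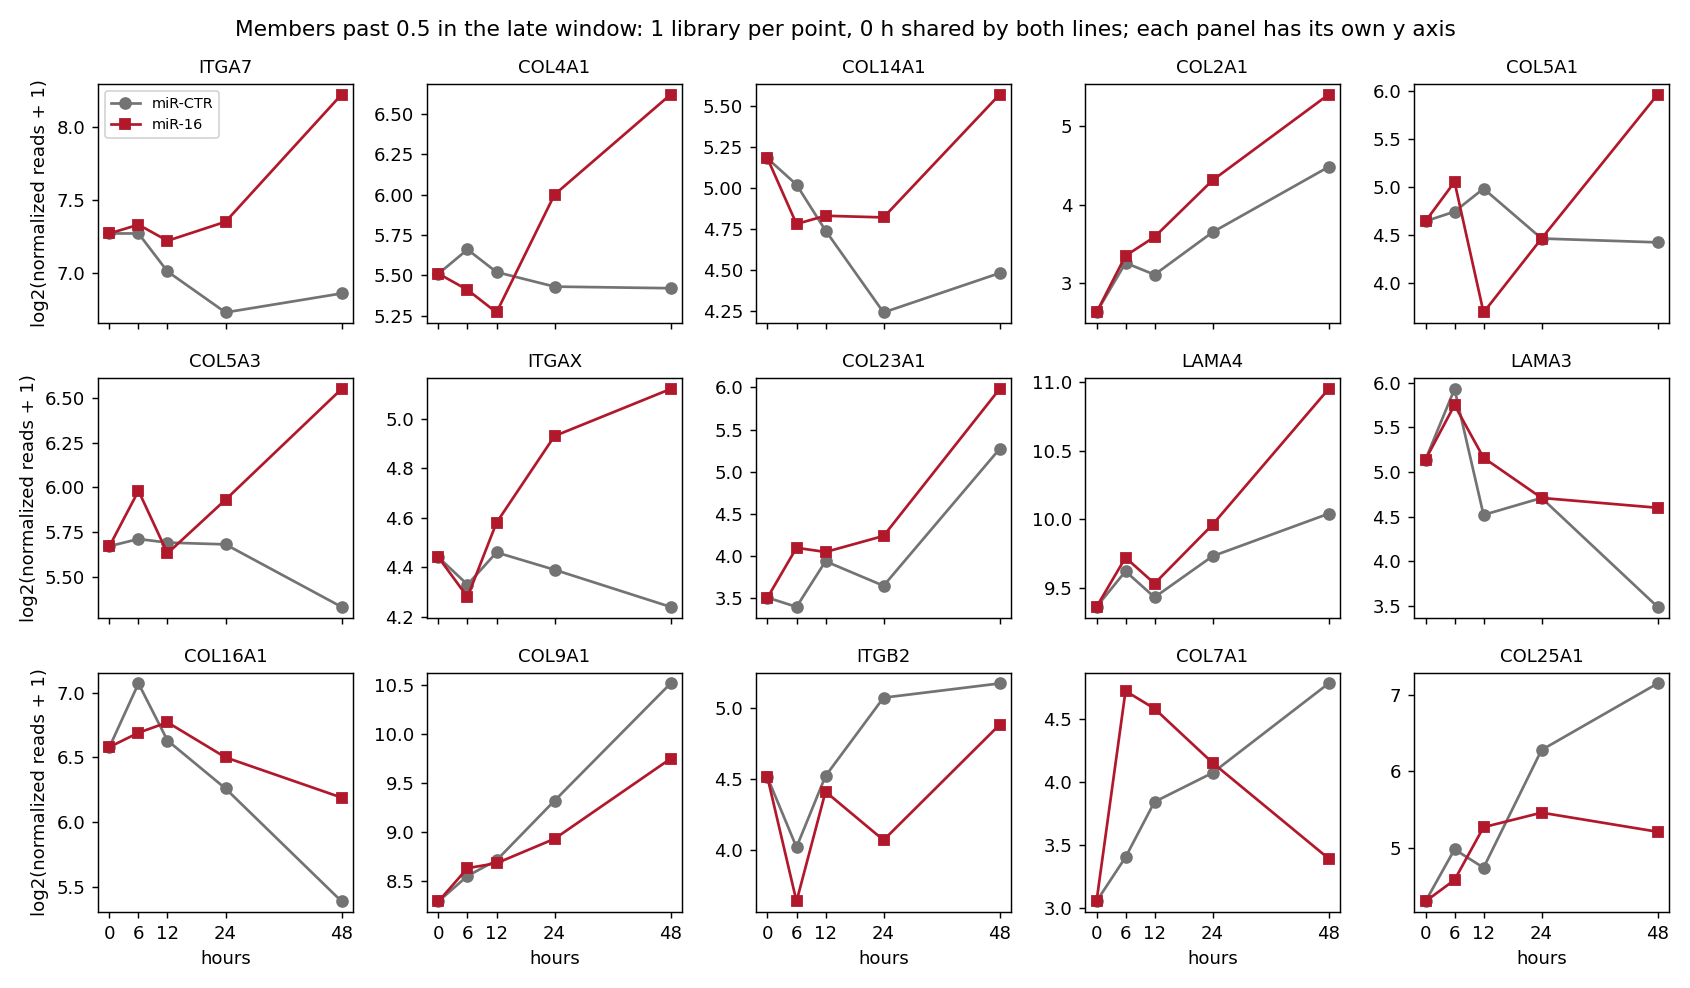
Level of the 15 called members, log2(normalized reads + 1), against hours for miR-CTR (grey) and miR-16 (red), with 1 library per point, the 0 h library shared, and a separate y axis in each panel. The members were chosen by their late logFC. The lines of ITGA7 lie close at 6 and 12 h and part at 24 and 48 h, ending at 8.22 with miR-16 and at 6.86 with miR-CTR. Those of COL5A1 and LAMA3 meet at 24 h (logFC 0.00), and those of COL7A1 are apart at 6 h (1.32).

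Among the laminin chains, LAMC1, with a seed match, was 14.65 at 0 h, 14.62, 14.47, 14.64, and 14.30 under miR-CTR, and 14.69, 14.39, 14.48, and 14.10 under miR-16. Its late logFC was −0.18 ± 0.01, and both late miR-16 values were below the miR-CTR value of the same time. LAMA1, the most abundant alpha chain and typical of early embryonic basement membranes, was 12.64 at 0 h, 12.82, 12.64, 12.88, and 12.48 under miR-CTR, and 12.85, 12.57, 12.75, and 13.02 under miR-16. The logFC of LAMA1 was −0.13 at 24 h and 0.54 at 48 h (late logFC 0.205 ± 0.02). LAMB2 was 11.03 at 0 h, 11.32, 11.18, 11.52, and 11.77 under miR-CTR, and 11.47, 11.08, 11.49, and 12.08 under miR-16. LAMB1, the alternative beta chain, was 11.18 at 0 h, 11.38, 11.36, 11.49, and 10.96 under miR-CTR, and 11.44, 11.29, 11.45, and 11.22 under miR-16. LAMB2 was higher at 48 h than at 0 h with both mimics, LAMB1 was not with miR-CTR, and their late logFC were 0.14 ± 0.03 and 0.11 ± 0.03.

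LAMA4, the alpha chain of vessel and muscle basement membranes, was 9.36 at 0 h, 9.62, 9.43, 9.73, and 10.04 under miR-CTR, and 9.72, 9.53, 9.96, and 10.95 under miR-16. It was higher with miR-16 at each of the 4 times, by 0.91 at 48 h (1.88-fold), and by 0.23 at 24 h, with a late logFC of 0.57 ± 0.04 on 632 to 1871 reads. LAMA4 thus had the highest read number in a single library among the 15 called members. LAMA3, a chain of an epithelial laminin, was 5.14 at 0 h, 5.93, 4.52, 4.71, and 3.49 under miR-CTR, and 5.75, 5.16, 4.71, and 4.60 under miR-16. Its late logFC of 0.555 ± 0.31 came from 48 h (1.11, against 0.00 at 24 h), where the miR-CTR value was the lowest of all 9. It was under the threshold with quantile normalization (0.39) and with a pseudocount of 8 (0.39). LAMB3, the beta chain of the same laminin, was 7.22 at 0 h, 7.57, 7.71, 7.77, and 7.11 under miR-CTR, and 7.49, 7.54, 7.31, and 7.02 under miR-16. Its miR-16 values were the lower ones at each time, with a late logFC of −0.275 ± 0.12. LAMA2 had −0.25 ± 0.26, LAMA5 0.15 ± 0.04, and LAMC3 0.055 ± 0.05.

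The integrin alpha subunits that bind laminin were ITGA3, ITGA6, and ITGA7. ITGA7, the laminin receptor subunit of muscle, was 7.27 at 0 h, 7.27, 7.01, 6.73, and 6.86 under miR-CTR, and 7.33, 7.22, 7.35, and 8.22 under miR-16. Both late miR-16 values lay above 0 h and both late miR-CTR values below it, and the late logFC of 0.99 ± 0.12 (1.99-fold) was the highest of the 52 members, on 100 to 281 reads. Exons of ITGA7 overlap those of BLOC1S1 on the opposite strand, which was more highly expressed (mean 10.35) and had a late logFC of 0.145. Since the use of strand in counting is not given in the sources used here, the reads of this pair could not be told apart. The same limit applies to LAMB1 with DLD, COL19A1 with LMBRD1, LAMA5 with ADRM1, COL18A1 with SLC19A1, COL9A3 with TCFL5, and ITGA9 with ITGA9-AS1. ITGB1, the partner of ITGA7, was 12.57 at 0 h, 12.41, 12.36, 12.21, and 12.24 under miR-CTR, and 12.34, 12.55, 12.45, and 12.50 under miR-16. The late logFC of ITGB1 was 0.25 ± 0.02, and those of ITGA3 and ITGA6 were −0.005 ± 0.04 and 0.145 ± 0.04.

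Integrin subunits that bind fibronectin and vitronectin through the RGD motif included ITGAV and ITGA5. ITGAV was 11.92 at 0 h, 11.53, 11.48, 11.55, and 11.51 under miR-CTR, and 11.57, 11.82, 11.81, and 11.71 under miR-16. ITGB5, a beta partner of ITGAV with a seed match, was 11.64 at 0 h, 11.46, 11.61, 11.72, and 11.28 under miR-CTR, and 11.51, 11.62, 11.88, and 11.68 under miR-16. Both were higher with miR-16 at each of the 4 times, with late logFC of 0.23 ± 0.03 and 0.28 ± 0.03, under the threshold. ITGB3, another beta partner of ITGAV, was 9.05 at 0 h, 9.10, 9.45, 9.85, and 10 under miR-CTR, and 9.05, 9.47, 9.92, and 9.87 under miR-16. It was higher at 48 h than at 0 h with both mimics, and ITGAV minus ITGB3 went from 2.87 at 0 h to 1.51 with miR-CTR and 1.84 with miR-16 at 48 h. ITGA5 had a late logFC of −0.115 ± 0.04 and ITGA9, a subunit that binds tenascin, −0.14 ± 0.08.

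The collagen-binding subunits ITGA1 and ITGA2 both hold 2 seed matches. ITGA2 was 8.12 at 0 h, and its miR-16 value was lower than the miR-CTR value at each of the 4 times, with logFC from −0.47 to −0.17 (late logFC −0.44 ± 0.07). ITGA1 had a late logFC of −0.115 ± 0.07 and its exons overlap those of PELO on the same strand. ITGAX and ITGB2 form a leukocyte integrin. ITGAX was 4.44 at 0 h, 4.33, 4.46, 4.39, and 4.24 under miR-CTR, and 4.28, 4.58, 4.93, and 5.12 under miR-16. ITGB2 was 4.51 at 0 h, 4.02, 4.52, 5.07, and 5.17 under miR-CTR, and 3.64, 4.41, 4.07, and 4.88 under miR-16. The partners stood on opposite sides, with late logFC of 0.71 ± 0.28 and −0.645 ± 0.28, on 16 to 32 and 10 to 41 reads, and ITGAX holds the seed match shown above. The leukocyte markers PTPRC, CD3E, and CD14 were not in the table and CD68 had a late logFC of −0.075. ITGAE, the subunit of intraepithelial lymphocytes, had 0.09 ± 0.06, and ITGB4, the partner of ITGA6 in hemidesmosomes, 0.28 ± 0.12.

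Of the 9 members with a miR-16 seed match, 7 had a late logFC below 0 (77.8%), and of the 43 without a match, 16 (37.2%). Among those 7, the 95% counting interval excluded 0 for COL25A1, LAMC1, and ITGA2. It included 0 for COL24A1, ITGA9, ITGA1, and COL12A1. Over all genes with a 3′UTR the shares were 61.2% with and 46.7% without a match. The median late logFC was −0.18 in members with a match and 0.14 in those without, and −0.085 and 0.015 in all genes. Past the threshold were COL25A1 on the lower side and ITGAX on the higher side. The other 3 lower members and the other 10 higher members had no such match. The exceptions to a late logFC below 0 were ITGAX and ITGB5.

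In the early window only COL7A1 was called, with a logFC of 1.03 ± 0.34 (1 of 52 members higher, where 2.04% of all genes were; none was lower, where 1.45% were). The median early logFC was −0.057 over the members and 0.0 over all genes. COL5A1 had −0.49, COL6A6 −0.445, and COL23A1 0.405. At single times, 2 members were higher and 2 lower at 6 h (3.38 and 3.34% of all genes), 3 were higher and 2 lower at 12 h (3.31 and 2.53%), 7 were higher and 4 lower at 24 h (7.24 and 5.26% of all genes), and 12 were higher and 5 lower at 48 h (10.4 and 8.96%). Of the 12 members higher at 48 h, only LAMA1 (0.54) was not called in the late window. The logFC was above 0 at all 4 times in 7 members (13.5%), ITGA7 and LAMA4 among them, where 17.7% of all genes were. It was below 0 at all 4 times in 8 (15.4%), COL11A1 and ITGA2 among them, where 16.7% were.

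The change from 0 h shows which of the mimic series had moved. In the late miR-CTR libraries, 18 members (34.6%) were more than 0.5 above 0 h, where 11% of all genes were, and 7 (13.5%) more than 0.5 below, where 9.79% were. In the late miR-16 libraries, 19 members (36.5%) were above, where 14.1% of all genes were, and 4 (7.69%) below, where 11.7% were. Both comparisons share the 0 h library, and time in culture, transfection, and the single 0 h library cannot be told apart. In the lowest 25% of genes by expression, 10 of 22 members were past 0.5 above 0 h with miR-CTR and 12 with miR-16. Of all genes in that range, 19.9 and 27.5% were. Past 0.5 below 0 h were 5 and 2 of these members (16.1 and 13.8% of all genes there). Of the 30 members expressed above that range, 8 and 7 were more than 0.5 above 0 h (8.09 and 9.64% of all genes there). More than 0.5 below 0 h were 2 of the 30 with either mimic (7.67 and 11% of all genes there). Since 0 h is shared, the values are given side by side. COL9A1 was 1.63 ± 0.09 above 0 h with miR-CTR and 1.05 with miR-16, and COL15A1 1.16 ± 0.2 and 1.29. ITGB3 was 0.875 ± 0.07 and 0.845 above 0 h, LAMB2 0.615 ± 0.04 and 0.755, and ITGA5 0.655 ± 0.05 and 0.54. ITGA6 was at −0.655 ± 0.04 with miR-CTR and −0.51 with miR-16, and COL19A1 at −1.17 ± 0.21 and −1.01.

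Among the members higher with miR-16 in the late window, ITGA7 was at 0.515 from 0 h with miR-16 and at −0.475 with miR-CTR, and COL4A1 at 0.8 and −0.085. LAMA4 was above 0 h with both mimics, at 1.095 and 0.525, and COL14A1 was at 0.015 with miR-16 and −0.82 with miR-CTR. COL16A1 and LAMA3 were below 0 h with both mimics, at −0.235 and −0.485 with miR-16 and at −0.755 and −1.04 with miR-CTR. Of the 4 lower members, COL25A1, COL9A1, and COL7A1 were above 0 h with both mimics, and ITGB2 was at −0.035 with miR-16 and at 0.61 with miR-CTR.

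**Figure D5:**
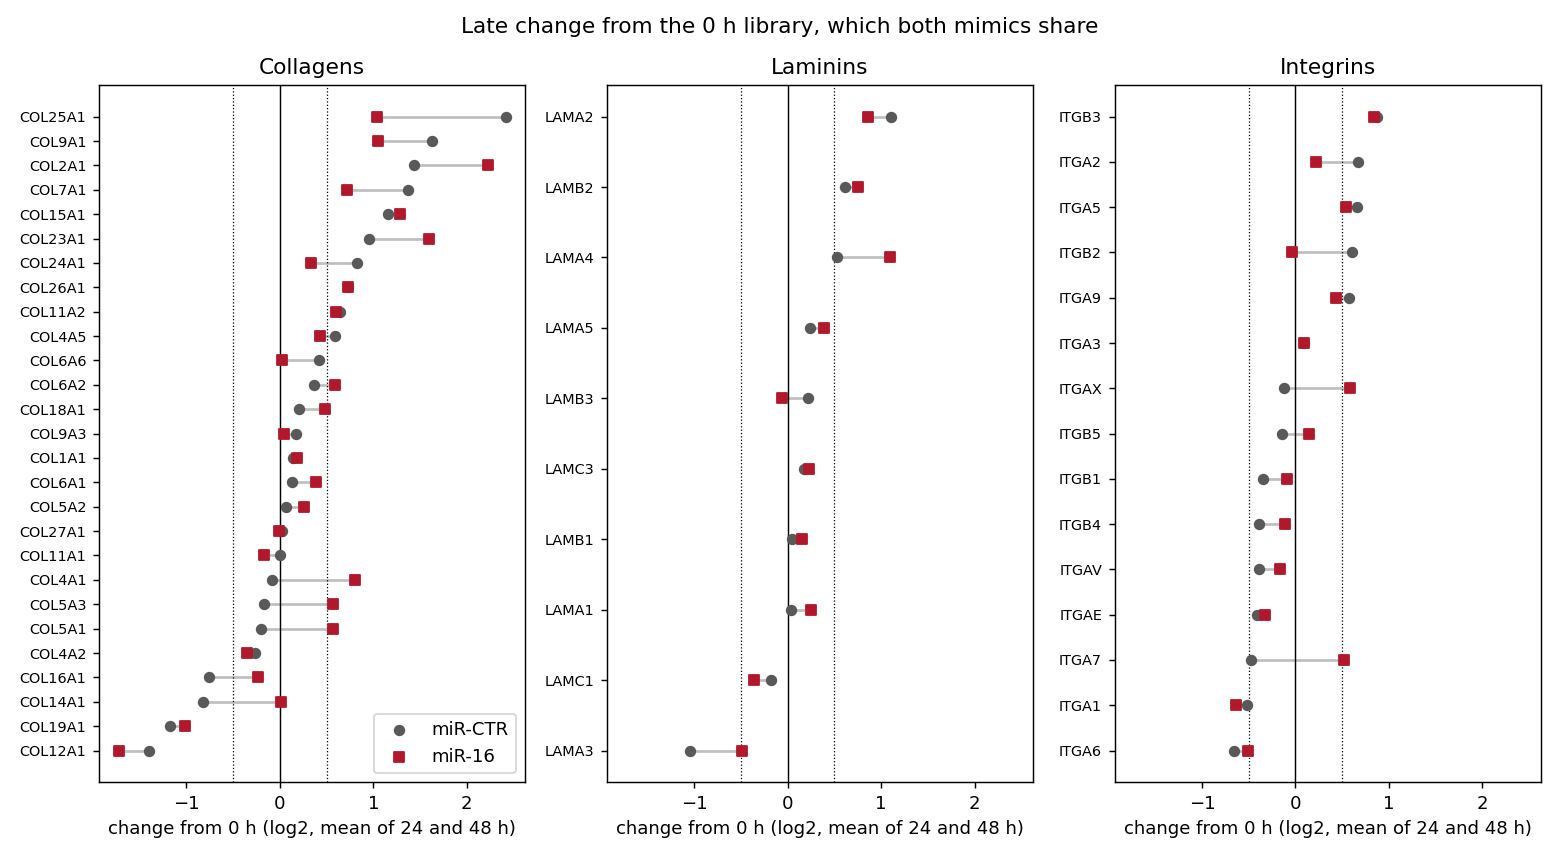
Late change from the 0 h library (log2, mean of 24 and 48 h) of each member with miR-CTR (grey circles) and miR-16 (red squares), joined by a line, 1 library per condition and time. Dotted lines mark 0.5 on either side, and COL25A1 has the longest line among the collagens, from 1.035 with miR-16 to 2.415 with miR-CTR.

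Genes that act on or with these proteins were taken from 4 lists. Of 24 measured genes of collagen biosynthesis, 4 were higher with miR-16 in the late window (7.76% of all genes) and 2 lower (5.73%), with a median of 0.078. Without the lowest 25% of genes by expression, 1 was higher and 0 lower (3.96 and 4.81% of all genes there). LOXL3, an enzyme that cross-links collagen, had a late logFC of 1.405 ± 0.12, and LOXL2 0.54 ± 0.23 (0.40 and not called with quantile normalization, 0.46 with a pseudocount of 8). PCOLCE, which enhances the trimming of procollagen, had 0.73 ± 0.15, and TLL2, a protease of the family that trims it, 0.88 ± 0.27. Lower were ADAMTS3, a procollagen protease, at −0.655 ± 0.18, and CTAGE5, which takes part in the export of collagen from the endoplasmic reticulum, at −0.72 ± 0.2. The other 18 genes lay within the threshold.

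Of 19 basement membrane partners and other matrix receptors and ligands, 5 were higher with miR-16 and 2 lower (7.76 and 5.73% of all genes, median −0.03). Without the lowest 25% of genes by expression, 2 were higher and 2 lower (3.96 and 4.81% of all genes there). FBLN2, a basement membrane and elastic fibre protein, had a late logFC of 1.075 ± 0.17, and FBN1, the main microfibril protein, 0.785 ± 0.11. NID1, which links laminin to type IV collagen, had 0.745 ± 0.31, and NTN4, a laminin-related netrin, 0.6 ± 0.1. THBS1, a secreted glycoprotein that binds several matrix receptors, had 0.605 ± 0.31 (0.45 with quantile normalization and 0.47 with a pseudocount of 8). The values of NID1 and THBS1 came from 48 h (1.56 and 1.30, against −0.07 and −0.09 at 24 h). SPARC, a collagen-binding protein with a mean level of 13.36, was at −0.71 ± 0.02. HSPG2, which codes for perlecan, was at −0.655 ± 0.04, and it was 1.17 above 0 h with miR-CTR and 0.515 with miR-16.

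Of 16 proteins that bind integrin tails or their complexes, 1 was higher and 1 lower (7.76 and 5.73% of all genes, median −0.018). Higher was PTK2B, a kinase related to focal adhesion kinase (0.67 ± 0.29), which lay in the lowest 25% of genes by expression. Lower was LIMS1, an adaptor of integrin-linked kinase (−0.565 ± 0.05). Of 9 matrix proteases and inhibitors, 3 were higher and none lower (7.76 and 5.73% of all genes, median −0.01). Without the lowest 25% of genes by expression, 2 were higher (3.96% of all genes there). MMP11, a stromelysin, had a late logFC of 1.67 ± 0.07, and TIMP3, an inhibitor that binds to the matrix, 0.57 ± 0.07. MMP1, a collagenase, was 3.39 and 0.0 with miR-CTR at 24 and 48 h and 3.77 and 1.64 with miR-16, so that 1 library had no reads. Its logFC of 1.01 depends on the pseudocount and was 0.29, not called, with a pseudocount of 8. The fibroblast or pericyte markers differed between the mimics too, in both directions and without a counting error given here. PDGFRB had a late logFC of 1.795 (level 3.52 to 5.6 over the libraries), PDGFRA 0.82 (3.95 to 5.5), and ACTA2 0.25 (7.91 to 9.37). LUM had −0.81 (6.94 to 8.57) and FAP −1.35 (2.63 to 5.1). Their part in the values of the collagens and laminins was not tested, and fewer cells of a type cannot be told apart from less RNA per cell in these bulk libraries.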

How the data were processed

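MP41 cells were profiled by RNA sequencing of polyA RNA in 9 libraries, 1 for each condition. The submitters' processing notes name FastQC, STAR (2.4.0a), featureCounts, Subread (1.5.0-p3), and the hg38/GRCh38 build; the annotation and the use of strand are not given in the sources used here. The authors deposited normalized log2 values with 2 decimals for 14839 genes. On the linear scale, less 1, the low values were whole multiples of a library's own step (0.853 to 1.15), as given by log2(reads / size factor + 1). The reads recovered in this way gave the depth and the counting errors (delta method), and no further normalization was applied. No count test was run, since each condition had 1 library.

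The members were taken by symbol. The members and the gene lists were chosen with earlier results of these data known. Every library's value is given for members past 0.5 in the late window, for the 3 most expressed members of each family, and for the chains compared with these as pairs or as parts of the same collagen or laminin type; from the other lists, genes past 0.5 in the late window are named. All 52 members were matched by symbol to GENCODE version 29 on GRCh38, as were 12976 of the 14839 symbols. Some sites and markers are not reported here. Exons of 25 members overlap those of another annotated gene. Promoters and miRNA sequences came from RefSeq (GRCh38.p14). The recovery of the reads and the counting of calls were tested on simulated data. Alternatives were a 1.5-fold threshold, quantile normalization, centring on the median, reads scaled by the library total, a pseudocount of 8, leaving out the 25% of genes with the lowest expression, 0 h as the reference in place of miR-CTR, a threshold met at each time of a window, each time on its own, and other site definitions. Python 3.11.15, pandas 2.3.3, numpy 2.4.6, and matplotlib 3.10.9 were used.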

Additional observations from a re-analysis of the deposited data

Results flagged for a closer look

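In 3 called members the 4 late libraries lay on opposite sides of 0 h by mimic, with both miR-16 values above the 0 h value and both miR-CTR values below it. These were ITGA7 (late logFC 0.99), COL4A1 (0.885), and ITGAX (0.71). The rule used the sign alone. The late change from 0 h with miR-CTR was within its counting error for COL4A1 (−0.085 ± 0.26) and ITGAX (−0.125 ± 0.38). ITGA7 with miR-16 at 24 h was only 0.08 above 0 h. With 1 library per condition the difference was not tested, and ITGAX and COL4A1 had at most 32 and 92 reads in a library.

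COL4A1 had an early logFC of −0.25 ± 0.21 and a late logFC of the opposite sign (0.57 at 24 h and 1.20 at 48 h). At 6 and 12 h the logFC was −0.25 ± 0.31 and −0.25 ± 0.30, each within its counting error of 0. The difference between the windows was not tested.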

How the results depend on the processing

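The miR-16 and miR-CTR libraries were matched by time in each logFC. No paired test was run, because each condition had 1 library and times were not used as replicates. For the same reason no replicate could be left out. Under every scaling tried, the median of all genes stayed within 0.018 of 0. Without the lowest 25% of expression, 2 of 30 members were higher and 1 lower in the late window (3.96 and 4.81% of all genes). In the early window 0 were higher (0.53% of all genes). From 0 h, 8 were higher and 2 lower with miR-CTR (8.09 and 7.67%), and 7 and 2 with miR-16 (9.64 and 11%). Fewer genes tested is that filter's own construction; the cause of the other shifts was not tested. With the threshold at both times, 6 members were higher and 1 lower late (4.03 and 2.78% of all genes). From 0 h, 3 were lower with miR-CTR, and 9 were higher and 2 lower with miR-16. For these counts from 0 h no share of all genes was computed. Quantile normalization gave 9 higher and 7 lower late (6.71 and 6.75% of all genes) and 1 lower early (1.6%). A pseudocount of 8 gave 9 and 3 late (6.55 and 4.98%). At 24 h alone 7 were higher (7.24% of all genes), and against 0 h 19 (14.1%). At 6 h 2 were higher and 2 lower (3.38 and 3.34%), and at 12 h 3 and 2 (3.31 and 2.53%). The shares of all genes given above for each setting apply to the lists too, and none was computed past 1.5-fold. Of the biosynthesis list, 1 was higher and 0 lower with the filter, 2 and 1 at both times, and 1 lower at 48 h (8.96% of all genes). Of the basement membrane list, 2 were higher with the filter, 3 at both times, and 3 at 24 h. Of the integrin tail list, 0 were higher with the filter, at both times, and at 24 h, and 2 against 0 h; 0 were lower past 1.5-fold and 2 at 24 h. Of the proteases, 2 were lower against 0 h. Seed matches were held by 0 members as 8mers alone and by 17 with 6mers counted. Among called genes, the sign against 0 h was opposite for COL16A1 (−0.235), LAMA3 (−0.485), COL7A1 (0.72), COL25A1 (1.035), COL9A1 (1.05), HSPG2 (0.515), and MMP1 (−2.105). At 24 h alone it was opposite for COL7A1 (0.08), NID1 (−0.07), and THBS1 (−0.09). Among genes not called, it was opposite for ITGB1 (−0.095), ITGAV (−0.16), and COL9A3 (0.04) against 0 h, and for LAMA1 (−0.13) and LAMB2 (−0.03) at 24 h. Of the values of single genes under an alternative, without the 10 sign changes of called genes, 220 lay within the 95% counting interval of the main value and 64 outside it.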
